A study of Caenorhabditis briggsae with 13 samples.

Results

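The genes described here gave a signal at or above the 75th percentile of the array in the 4-cell embryo of the nematode Caenorhabditis briggsae, fell at least 4-fold by the 28-cell stage and stood at least 4-fold above that low again at the 190-cell stage. They number 78 of the 19528 genes on the array and are called dip genes below. The level of a gene was its log2 signal minus the 75th percentile of log2 signals on the same array, averaged over its probes, so that a level of 0 equals the 75th percentile and a difference of 1 is a 2-fold change. A dip gene had a level of at least 0 at 4 and at 190 cells, its lowest stage mean at 28 cells, and a 28-cell mean at least 2 log2 units below both the 4-cell and the 190-cell mean. These values chose the genes, so the dip itself is a description and carries no test.

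The series followed total RNA of strain AF16 through 5 stages. They were the 4-cell embryo at 0 min (2 arrays), the 28-cell embryo at 55 min (3 arrays), the 55-cell embryo at 80 min (3 arrays), the 95-cell embryo at 120 min (2 arrays) and the 190-cell embryo at 160 min (3 arrays), with times counted from the 4-cell stage. Each array held RNA from 50 pooled embryos, untreated and of the same strain, amplified by in vitro transcription and labelled with Cy3. In RNA of whole embryos, fewer cells that carry a transcript and less of it per cell cannot be told apart.

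The oocyte is loaded by the mother with messenger RNA that runs the first divisions. During cleavage much of this maternal RNA is degraded, and the embryo's own genome is switched on, a handover called the maternal-to-zygotic transition. A gene that is supplied by the mother, cleared and later transcribed again by the embryo would show a dip between both phases. The arrays measured RNA levels and did not distinguish maternal from embryonic transcripts, so the terms maternal and re-expressed were not tested for these genes. Of the 19528 identifiers on the array, 0 were found in the reference table used here, so no symbol, chromosome or function is given and markers of cell types were not checked.

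Several arrays carry labels or files in doubt that touch the dip directly. For 4 arrays the title and the tagged stage disagree, the tag reading 4-cell in each, and the title was used. They are replicate B of the 28-cell stage, replicate A of the 55-cell and of the 95-cell stage, and replicate B of the 190-cell stage. On these arrays, in this order, 51.6%, 56.1%, 47.5% and 54.1% of probes were well above background. The share was 40.5% on 4-cell A and 39.7% on 4-cell B, and the labels were not tested. The scanner file of 28-cell C is a copy of that of 190-cell C, so its signals came from the series table and it has no detection flags or scan date. Scanner signals had no scaling between arrays, and their 75th percentile ranged from 234.8 to 546.6. Of the arrays with flags, 9 were scanned on a first date and 3 (55-cell C, 95-cell B and 190-cell C) on a second. These 3 also had the highest shares of probes well above background.

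Dip genes were a small share of the genes that fell early. 1625 genes had a level of at least 0 at 4 cells and fell at least 4-fold by 28 cells, and 4.8% of them were dip genes. 898 of the 1625 still had a level of at least 0 at 190 cells, but only 80 rose at least 4-fold from 28 cells, and 2 of these had a lower mean at another middle stage. From the other side, 561 genes had a level of at least 0 at 190 cells after a rise of at least 4-fold from 28 cells, and 13.9% of them were dip genes. The other 1547 early fallers had a median level of 3.33 in 4-cell embryos and of 0.25 in 28-cell embryos. It was then 0.22 by 55 cells, 0.35 by 95 cells and 0.21 by 190 cells, so that the median stayed near its 28-cell value.

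The threshold cut through a continuous range. Depth was taken as the smaller of the fall from 4 cells and the rise to 190 cells. The 3 shallowest dip genes had depths of 2.01, 2.02 and 2.02 log2 units, and the 3 genes just outside, which met the other conditions, had 1.996, 1.996 and 1.99. The lowest dip gene had a level of 0.030 at 4 cells and the lowest at 190 cells a level of 0.17.

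The median level of the dip genes was 2.68 in 4-cell embryos (range over genes 0.030 to 6.84) and -0.53 in 28-cell embryos (-3.88 to 4.39). It stood at 0.91 by 55 cells (-2.79 to 5.36), at 1.74 by 95 cells (-0.47 to 5.89) and at 2.07 by 190 cells (0.17 to 6.43). Signals of different genes also depend on their probes, so these ranges do not order the genes by abundance. The fall from 4 to 28 cells was 8.83-fold in the median gene (range 4.11 to 31.1), and the rise from 28 to 190 cells 5.67-fold (range 4.02 to 29.8). In log2 units these medians were -3.14 and 2.50, but they depended on the scaling. They were -1.94 (less than 4-fold) and 2.59 when scaled on probes above background on all arrays (detected probes). Quantile normalization gave -2.45 and 2.65, and centring on the median gene -3.66 and 2.67. Without 28-cell C, spike-in scaling gave -2.42 and 2.87, and normexp -2.51 and 2.17. With detected probes, quantile normalization or spike-ins the fall was the smaller. Depth had a median of 2.37 log2 units and reached 3.93.

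**Figure D1:**
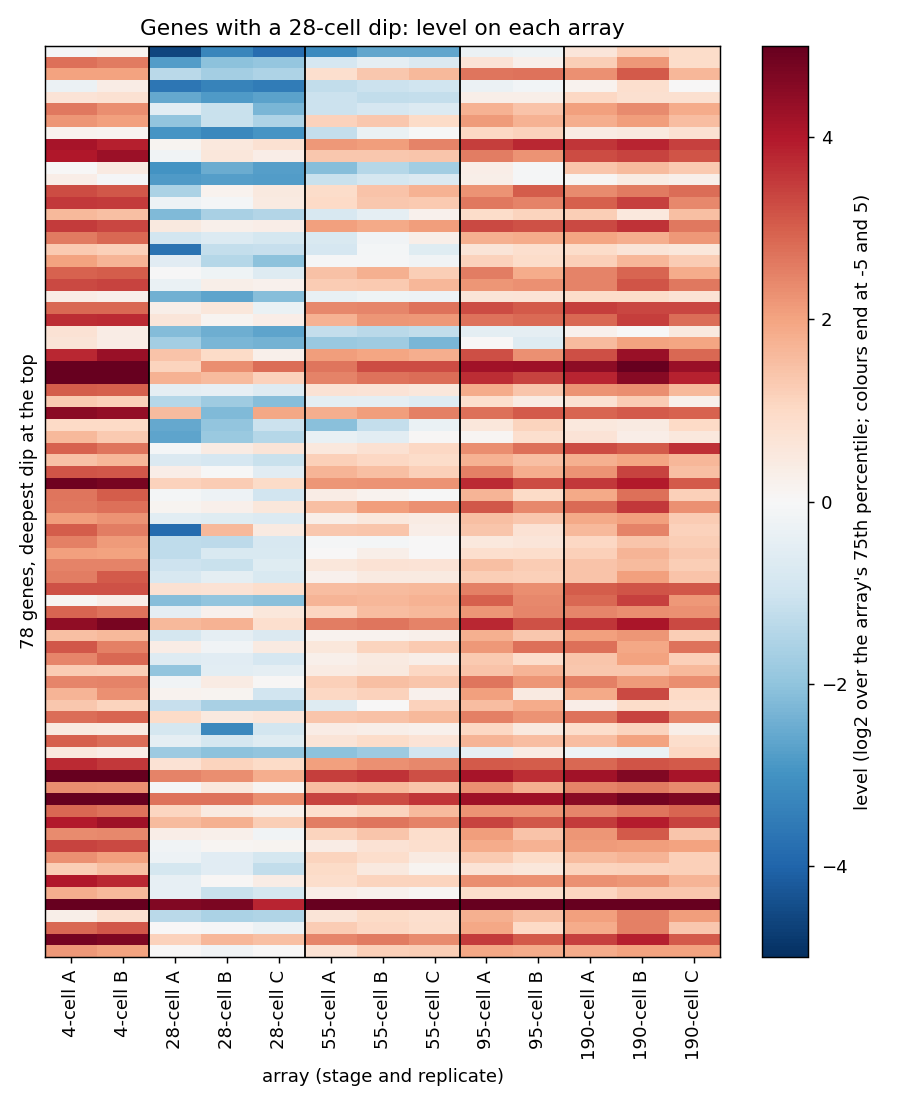
Level of the 78 dip genes (rows, deepest dip at the top) on the 13 arrays (columns, grouped by stage), in log2 units over the array's 75th percentile, with red above and blue below 0. The 3 columns of the 28-cell stage are paler or bluer than the columns on either side in nearly every row, and single dark blue cells at 28-cell A or B mark genes in which 1 array stands apart.

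The low is described here array by array, although every 28-cell array entered the means that chose the genes. The median level of the dip genes was -0.44 on 28-cell A, -0.44 on 28-cell B and -0.62 on 28-cell C, against 2.59 and 2.55 on the 4-cell arrays. It was 0.85, 1.05 and 0.89 on 55-cell A, B and C, 1.89 and 1.73 on 95-cell A and B, and 2.04, 2.27 and 1.66 on 190-cell A, B and C. No 28-cell array had a median near that of any other stage, which the choice of genes favours. Single genes could differ from these medians, as described below. In 68 of 78 genes every 28-cell array lay below every array of the other 4 stages. The rule favours this by asking for the lowest mean at 28 cells. The share of tested genes was not counted, so nothing is read from this count either. In all 78 genes every 28-cell array lay below both 4-cell arrays, which was so for 39.3% of the 13443 genes tested, and in 77 below every 190-cell array (26.3% of tested genes). The rule used these contrasts, and nothing is read from these counts or shares.

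In 5 genes the 28-cell arrays differed by over 2 log2 units, and in each of them 1 array lay far below the other two. The widest had -3.85 on 28-cell A, 1.62 on 28-cell B and 0.46 on 28-cell C. Another had -2.21 on 28-cell B, against 1.57 on 28-cell A and 1.93 on 28-cell C. The SD among 28-cell arrays had a median of 0.30 over the dip genes and exceeded 1 in 5 of them, whereas it exceeded 1 in 0 genes at 4 and 55 cells, in 1 gene at 95 cells and in 1 gene at 190 cells.

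The low was above background for most dip genes. On 28-cell A every probe of 74 genes was well above background, and on 28-cell B every probe of 73 genes, against 77 genes on each 4-cell array and 78 on each 190-cell array. 0 dip genes were without a probe above background on 28-cell A or B, and 0 had a saturated probe on any array with flags. 70 of 78 genes had every probe above background on all 12 arrays with flags. For these genes the low on 28-cell A and B lay inside the measured range.

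Rank among tested genes is the same under any scaling that adds a constant to each array, although the choice of the dip genes is not. The median dip gene ranked at the 79.4 and 79.1 percentile of the 13443 tested genes on the 4-cell arrays. Its rank was 58.5, 58.7 and 57.7 on 28-cell A, B and C, then 71.9, 74.4 and 73.1 on 55-cell A, B and C. It was 81.6 and 81.4 on 95-cell A and B, and 83.9, 83.9 and 81.1 on 190-cell A, B and C. The 3 lowest ranks are those of the 28-cell arrays, and by 95 cells the median rank was back at or above its starting value. A rank also depends on the probes and moves when other genes change, so only its difference between arrays is described.

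**Figure D2:**
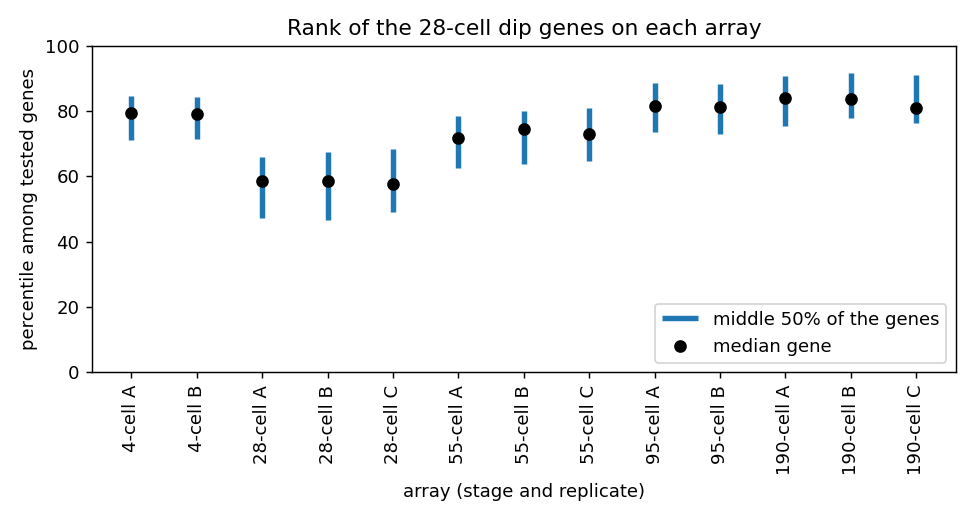
Percentile of the dip genes among the 13443 tested genes on each array (black point, median dip gene; blue bar, 25th to 75th percentile of the dip genes), with arrays in order of stage. The 28-cell arrays lie lowest, at medians of 57.7 to 58.7, and the 95-cell and 190-cell arrays at or above the 79.1 and 79.4 of the 4-cell arrays.

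WBGene00030562 and WBGene00038896 had the greatest depths by gene means (3.93 and 3.71), but the first average includes a probe at background. WBGene00038896 had levels of 2.77 and 2.62 in the 4-cell samples and of -2.80, -2.06 and -1.94 in the 28-cell samples. By 55 cells it was at -0.85, -0.46 and -0.74, by 95 cells at 0.67 and 0.25, and by 190 cells at 1.24, 2.15 and 0.94. The stages followed each other without overlap from 28 cells onwards, and the last arrays remained below the first. The fall was 31.1-fold and the rise 13.1-fold, the A probe falling by 4.90 and the B probe by 5.02 on the log2 scale. Between 190 and 4 cells its change of -1.25 (SE 0.378) passed the test (limma adjusted p = 0.0117), but the call was lost without 4-cell A, on the first scan date alone, after quantile normalization (-0.38) and with spike-in scaling (-0.29). The change became 0.042 when arrays were scaled on probes above background on all of them.

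WBGene00030562 had its low partly at background, since its A probe was not well above it on 28-cell A, 28-cell B and 55-cell A. Its 4-cell levels were -0.054 and 0.16, its 28-cell levels -4.58, -3.25 and -3.81, and its 55-cell levels -3.17, -2.62 and -2.58. By 95 cells it stood at -0.29 and -0.21, and by 190 cells at 0.59, 1.21 and 0.91. Between 55 and 95 cells it rose by 2.54 log2 units (SE 0.371, limma adjusted p = 0.000452), by 2.87 on the A probe and by 2.21 on the B probe. The B probe alone fell by 3.54 on the log2 scale to 28 cells, so the rank of this gene by depth or by this step rests on the A probe. Its change of 0.85 (SE 0.371) between 190 and 4 cells did not pass the test (limma adjusted p = 0.0626), but it passed in 8 of the 26 other settings. These were scaling on spike-ins (1.80) or detected probes (2.14), quantile normalization (0.95), normexp (0.76), the replicate letter as a block (0.80), and leaving out 28-cell A, 28-cell B, or 28-cell B and C (0.85 each).

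WBGene00038813 had the widest step from 28 to 55 cells among the dip genes (3.77 log2 units) and ended above its start. Its 4-cell levels were 0.11 and 0.32, its 28-cell levels -2.12, -1.99 and -2.10, and its 55-cell levels 1.70, 1.66 and 1.74. It reached 2.99 and 2.41 by 95 cells, and 2.89, 3.43 and 2.16 by 190 cells. All arrays from 55 cells onwards lay above both 4-cell arrays, and 76.9% of its rise in log2 units was complete at 55 cells. Its mean was 2.83 ± 0.64 at 190 cells (SD, n = 3) and 0.21 ± 0.15 at 4 cells (n = 2), a 6.13-fold rise (log2 change 2.62, SE 0.341, limma adjusted p = 2.24e-05). The log2 change was 3.57 with spike-in scaling and 3.91 when detected probes set the scale.

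WBGene00036538 recovered least relative to its start. Its 4-cell levels were 4.01 and 3.76, its 28-cell levels -0.41, 0.070 and 0.39, and its 55-cell levels 0.86, 1.12 and 1.12. It stood at 2.34 and 2.30 by 95 cells, and at 2.27, 2.21 and 1.71 by 190 cells, each of these below both 95-cell arrays. Its mean was 2.06 ± 0.31 at 190 cells (SD, n = 3) and 3.88 ± 0.17 at 4 cells (n = 2), a log2 change of -1.82 (SE 0.295, limma adjusted p = 0.000146). The call was lost with scaling on detected probes (-0.53), after quantile normalization (-0.69) and with spike-ins (-0.86). WBGene00038813 and WBGene00036538 are shown because they had the largest called rise and fall between these stages among the dip genes.

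**Figure D3:**
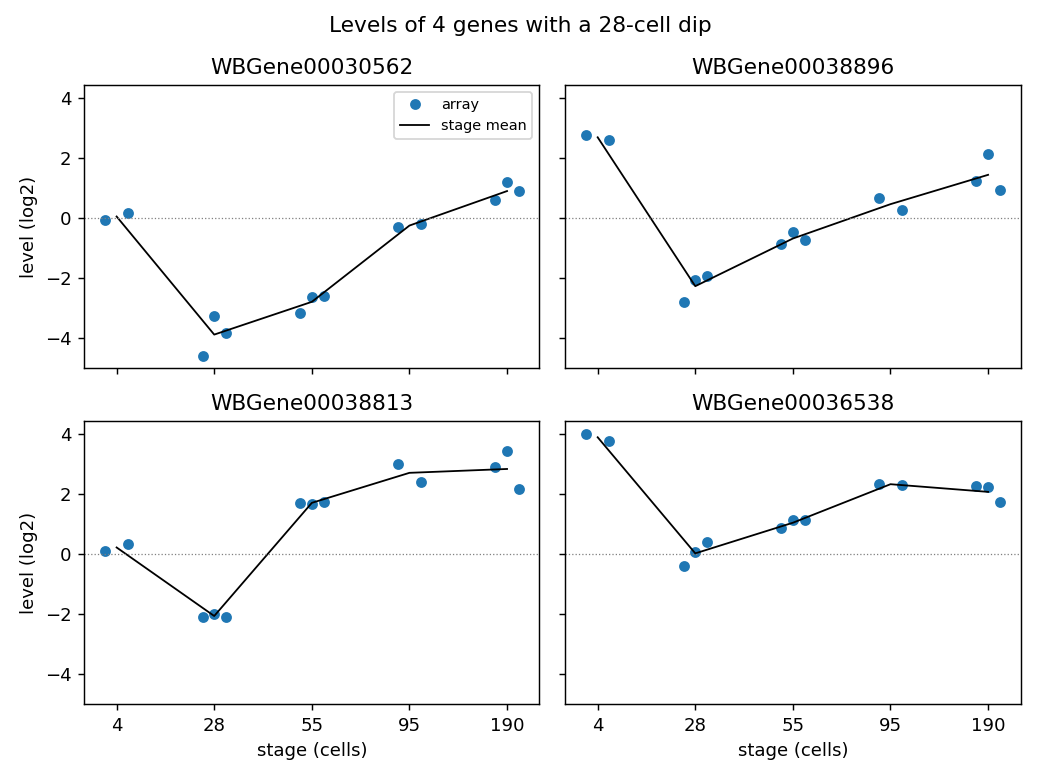
Levels of 4 dip genes by stage in log2 units over the array's 75th percentile, with a point for each array, a line through the stage means and a dotted line at 0. The upper 2 have the greatest depths by gene means; WBGene00038813 ends above and WBGene00036538 below its 4-cell level.

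Recovery had begun by 55 cells in most dip genes. The rise from 28 to 55 cells had a median of 1.20 log2 units (range 0.14 to 3.77), and in 68 genes every 55-cell array lay above every 28-cell array (19.8% of tested genes). The rule fixed the direction of this step. At 55 cells the median dip gene had completed 49.9% of its rise to 190 cells in log2 units, with a range from 3.51% to 80.5%. Fewer than 25% of the rise was complete in 7 genes, 25 to 50% in 33, 50 to 75% in 34 and more in 4. By 95 cells 77 of 78 had passed 50%, and the median stood at 87.3%. The 25th to 75th percentile of the genes ran from 79.2% to 97.7% by 95 cells, and from 41.7% to 63.0% by 55 cells, so the spread in tempo was of similar width at both stages.

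The step from 55 to 95 cells was the one in which the stages compared set no threshold in the rule. All 78 dip genes had a higher mean at 95 than at 55 cells (40.9% of tested genes), 34 of them by at least 2-fold (9.31%), and 33 of them rose (limma adjusted p under 0.05, over all tested genes), against a background of 7.39% of tested genes called higher. None fell at that threshold or at an unadjusted p under 0.05, at which 61 had a positive change; 12.4% of tested genes were called lower at the adjusted threshold, and 20% lower and 12% higher at the unadjusted one. The median change was 0.90 in the dip genes (middle 80% from 0.53 to 1.61) and -0.19 in all tested genes (-1.38 to 0.94). The 33 called genes rose by 1.73-fold to 5.82-fold, with a median of 2.54-fold; the highest is that of WBGene00030562. In 73 dip genes both 95-cell arrays lay above all 55-cell arrays (20.3% of tested genes). Because the rule asked for a rise between 28 and 190 cells, a rise within that span is favoured by the choice of genes, and nothing particular to dip genes is read from the share called.

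In the other early fallers rises and falls were about equally frequent at this step. Among the 1547 genes that fell alike by 28 cells but were not dip genes, 60 were called higher and 61 lower at 95 than at 55 cells, and their median change was 0.026. The difference between these groups was not tested, since the rise to 190 cells separates them by definition. Within the first scan date (1 array at 95 and 2 at 55 cells) 77 dip genes were higher at 95 cells, with a median of 1.09, and within the second (1 array each) all 78, with a median of 0.78; the median tested gene changed by -0.097 and -0.24. The number of called genes depended on single arrays: it was 12 without 95-cell A, 13 without 95-cell B, 18 without 55-cell A and 6 without the 4 arrays with contradictory tags, and 2 with spike-in scaling, while the median change lay between 0.80 and 1.12 in all settings tried.

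After 95 cells little further change was resolved. Between 95 and 190 cells 2 dip genes rose (background 4.71%) and none fell (background 2.66%) by limma at adjusted p under 0.05. At an unadjusted p under 0.05, 10 were higher (10.4% of tested genes) and 1 lower (7.62%). 3 were higher by at least 2-fold (8.81%), and in 28 every 190-cell array lay above both 95-cell arrays (19.4%). The larger of the 2 had 190-cell levels of 1.57, 2.03 and 1.99, against 95-cell levels of 0.0072 and -0.63, a 4.51-fold rise (log2 change 2.17, SE 0.320, limma adjusted p = 0.00139). The other had 190-cell levels of 1.38, 1.57 and 1.31, against 95-cell levels of 0.33 and -0.041, a 2.42-fold rise (log2 change 1.28, SE 0.295, limma adjusted p = 0.0194). In neither gene did the stages overlap; both were singled out after their values were seen. The median change was 0.30 in the dip genes and 0.080 in all tested genes, and 62 dip genes had a positive one (55.3% of tested genes). The same number had their means in rising order over the last 4 stages, and 16 stood higher at 95 than at 190 cells. The level at 190 cells entered the rule, which favours rises here. The count was 1 gene without 95-cell A, 95-cell B or 190-cell A, and 4 without 28-cell A.

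The comparison of 190 with 4 cells asked how far the dip genes regained their starting level. The 4-cell mean was the highest of the 5 in 56 genes, the 190-cell mean in 16 and the 95-cell mean in 6. 19 dip genes were lower at 190 than at 4 cells and 4 higher (limma adjusted p under 0.05), where 36.2% of tested genes were called lower and 26.6% higher. At an unadjusted p under 0.05, 23 were lower (38.6% of tested genes) and 6 higher (27.9%). 20 had a positive change (40.3%), 4 of them of at least 2-fold (27.1%). Every 190-cell array lay below both 4-cell arrays in 42 dip genes (45.6%) and above both in 12 (31.3%). The 19 lower genes changed by -0.75 to -1.82 and had levels between 0.52 and 4.68 at 190 cells, against 1.47 to 6.08 at 4 cells. The 4 higher genes changed by 1.19 to 2.62 and had levels between 1.42 and 2.83 at 190 cells, against 0.21 to 0.55 at 4 cells. The median change was -0.47 in dip genes and -0.45 in all tested genes, with a middle 80% from -1.25 to 0.43 in dip genes and from -2.91 to 3.23 in tested genes. 59 dip genes (75.6%) and 37.2% of tested genes lay within 2-fold of the 4-cell level. The rule set floors for the dip genes at both stages and a distance from 28 cells, which favours a narrow range. It thereby also disfavours calls between these stages, so nothing particular to dip genes is read from the shares called.

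The direction of this comparison was set by the scaling. With arrays scaled on probes above background on all arrays the median tested gene changed by 0.84, and 41 dip genes were called higher and 0 lower. Quantile normalization gave 21 higher and 0 lower, with medians of 0.39 in dip genes and -0.22 in tested genes. The median dip gene differed from the median tested gene by -0.024 wherever the scaling adds a constant to each array, as the 75th percentile, detected probes and spike-ins do. The difference was 0.61 after quantile normalization and 0.22 with normexp background correction. The count of lower genes was 12 without 4-cell A and 12 without 4-cell B.

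**Figure D4:**
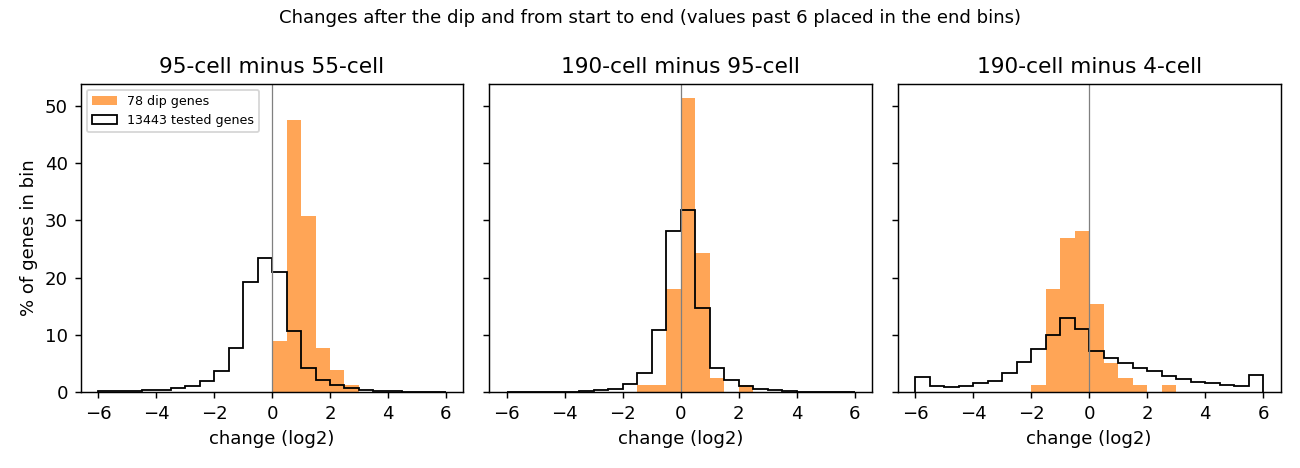
Share of genes per bin of log2 change, in bins of 0.5, for the 78 dip genes (orange) and all 13443 tested genes (black outline), for 95-cell minus 55-cell, 190-cell minus 95-cell and 190-cell minus 4-cell embryos. The dip genes lie wholly above 0 in the first panel, with a median of 0.90, and near 0.30 in the second. In the third they lie around -0.47 and spread less than the tested genes, which the rule favours.

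Separate probes of a gene measured the dip on the same arrays. 77 dip genes had several probes, 61 with 2 and 16 with 3, and 1 gene had a single probe. Every probe went down and then up in all 77 genes. Every probe changed at least 2-fold both ways in 76 genes and at least 4-fold both ways in 61. The mean of these same probes chose the genes, which favours such agreement. The share among other genes was not counted, and nothing is read from these counts. The A and B probes of a gene differed in their fall by a median of 0.20 log2 units, and by 4.00 in the widest case, so the gene mean can rest on 1 probe. Across these 77 genes the A and B probes correlated with r = 0.44 for the fall and r = 0.54 for the rise, over a range that the rule had narrowed.

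**Figure D5:**
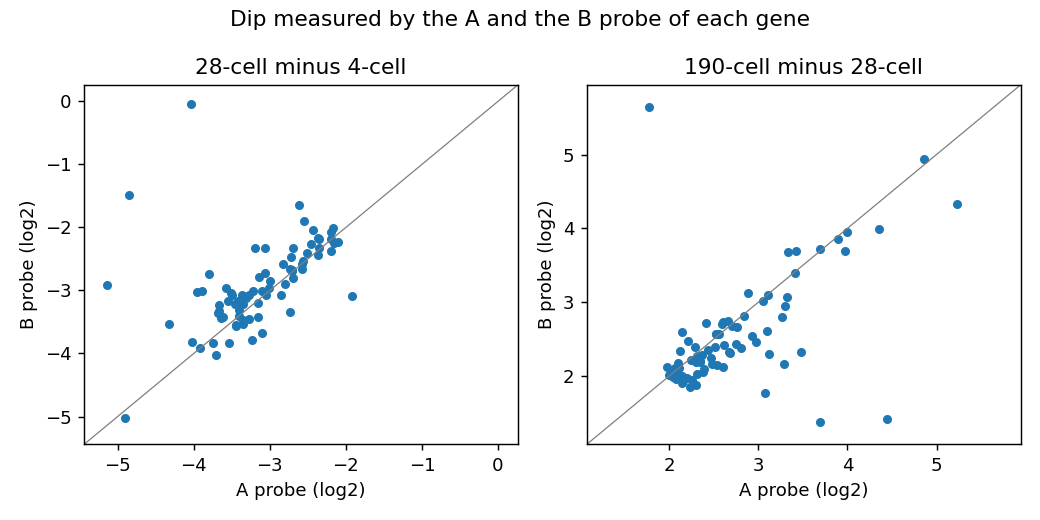
Log2 change from 4 to 28 cells (left) and from 28 to 190 cells (right) by the A probe (x axis) and the B probe (y axis) of 77 dip genes, with the line of equality. Most points lie near the line, and a few genes far from it have a dip that one probe measured as much deeper than the other. In the widest case the B probe changed by only -0.038 from 4 to 28 cells.

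Membership depended on scaling and on single arrays, and many dip genes lie near the threshold. With each of the 13 arrays left out in turn, 44 of 78 genes met the rule every time, and the number of genes that met it ran from 65 (without 190-cell B) to 96 (without 190-cell C). 33 of the 78 met the rule under each of 4 other scalings. With scaling on detected probes 38 genes met it, 33 of them dip genes, and with spike-in scaling 94 genes met it, 48 of them dip genes. 20 genes met it under all 24 settings tried, WBGene00038896 among them, whereas WBGene00030562 and WBGene00038813 did not meet it with scaling on detected probes or spike-ins. WBGene00030562 also missed it by the A probe alone and without 4-cell B, and WBGene00038813 with normexp. WBGene00036538 missed it by the A probe alone, with normexp, and without 190-cell A, 190-cell B or 28-cell A. Without 28-cell B and C, which leaves the array with undisputed labels, 103 genes met the rule, 58 of them dip genes.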

How the data were processed

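The authors deposited processed spot signals (intensity, linear scale) that Agilent's Feature Extraction (9.5.3.1, per the file headers) had corrected for background and for a spatial trend. Array flags (well above background, saturated, outlier) came from the same files. The deposited series table equalled the scanner signal on 12 arrays (relative tolerance 1e-06). The files held 42034 gene probes, 0 signals at or below 0 and 0 columns of no sample.

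For the rule, all probes of a gene were averaged after the log2 of each signal was set against the array's 75th percentile. For tests, 207 probes with an outlier flag were left out, and a probe was kept if some stage had it well above background on all its arrays with flags (24781 probes, 13443 genes); all 171 probes of the dip genes were kept, so the levels equal those of the rule. limma 3.58.1 (lmFit, eBayes, two-sided) in R 4.3.3 was fitted to all 13 arrays, with Benjamini-Hochberg adjustment over 13443 genes, and tested on simulated data. Replicates were separate biological samples per the labels' protocols. Alternatives were another scaling (detected probes, spike-ins, quantile, median gene; the rule's floor was kept at the same average level), normexp on median spot and background signals (offset 50), probe filters, the A probe alone, scan date or replicate letter as a block, and left-out arrays. Genes were named by a rule: the 2 deepest dips and the largest called rise and fall from 4 to 190 cells. Members and lists were chosen with earlier results of these data known. Lists by gene symbol could not be applied, since 0 of 19528 identifiers matched the reference table. The number of arrays limits the precision.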

Additional observations from a re-analysis of the deposited data

How the results depend on the processing

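The number of genes that met the rule (78) was 38 with scaling on probes above background on all arrays, 121 after centring arrays on the median gene and 45 with normexp, and ran from 65 to 96 with 1 array left out. For 190-cell vs 4-cell, the 19 lower and 4 higher genes were 0 and 41 with scaling on detected probes, 0 and 21 after quantile normalization, 35 and 4 when centred on the median gene, 0 and 5 with spike-ins, and 23 and 8 with normexp; with 1 array left out they ran from 12 to 26 and from 3 to 5. The median change of -0.47 turned to 0.82, 0.39 and 0.48 with detected probes, quantile normalization and spike-ins, was -0.82 when centred on the median gene, and ran from -0.58 to -0.40 with 1 array left out. WBGene00038896 turned to 0.042 with scaling on detected probes; the other 3 named genes kept their sign in all 26 settings. For 95-cell vs 55-cell, the 33 higher genes were 56 when centred on the median gene, 2 with spike-ins, 52 with normexp, 20 with no filter on dim probes and 6 without the arrays with contradictory tags, and ran from 12 to 47 with 1 array left out; 0 were lower in any of these. The median change of 0.90 was 1.12 when centred, 1.11 with spike-ins and 1.09 on the first scan date, and ran from 0.84 to 1.07 with 1 array left out. For 190-cell vs 95-cell, the 2 higher genes were 0 with spike-ins, 4 with normexp, 1 with no filter, without the arrays with contradictory tags or on the first scan date, and ran from 1 to 4 with 1 array left out, with 0 lower. Spike-in and normexp values also leave out 28-cell C, and fits with arrays left out have fewer samples; beyond that the cause was not tested. Over the same 13443 genes, calls ranged, for 95-cell vs 55-cell (993 higher, 1661 lower) between 266 and 1367 and between 363 and 2143, for 190-cell vs 95-cell (633, 358) between 67 and 824 and between 46 and 554, and for 190-cell vs 4-cell (3579, 4861) between 2370 and 6430 and between 1468 and 6202. With no filter (19528 genes tested) the higher and lower calls were 591 and 896, 310 and 161, and 2885 and 8254 for these comparisons in this order, and with probes above background on all arrays (8477 genes tested) 452 and 626, 150 and 126, and 1475 and 4081.

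With the replicate block (letters as a term), 5 dip genes were higher and 17 lower for 190-cell vs 4-cell, 39 were higher for 95-cell vs 55-cell and 2 for 190-cell vs 95-cell. Deviations from the stage means correlated at over 0.1 in 4 of 10 pairs of A arrays (r from -0.28 to 0.39), 3 of 10 pairs of B arrays (-0.50 to 0.23) and 3 of 3 pairs of C arrays (0.33 to 0.53), so the letters were not taken as pairs. The arrays of the second scan date also correlated (r = 0.51, 0.35 and 0.53). With a scan date block and no 28-cell C, 49 dip genes were higher for 95-cell vs 55-cell, 3 for 190-cell vs 95-cell, and 5 higher and 21 lower for 190-cell vs 4-cell. Leaving out 28-cell B and C, and using only kept probes in the rule (89 genes), were chosen after the data were examined.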
